A study of Mus musculus with 12 samples.

Results

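Scavenger uptake and lipid handling were followed through 10 genes, *Cd36*, *Msr1*, *Olr1*, *Marco*, *Scarb1*, *Lrp1*, *Lpl*, *Fabp4*, *Fabp5* and *Plin2*, across sorted bone marrow endothelial cells of mice with cardiovascular disease. They were chosen by name as lipoprotein uptake and lipid handling genes and not by a cutoff on their measured values, though earlier results of these data were known. Each symbol was matched to its Ensembl gene in the count table. All 10 of these 10 genes were found among the 55421 genes of the table, and all 10 passed the filter on low counts that left 15999 genes to test.

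RNA was sequenced from cells of 12 mice, 3 in each of 4 groups, to ask how hypertension, atherosclerosis and myocardial infarction alter the marrow endothelium. The cells were sorted from marrow as Ter119-, CD41-, CD45-, CD31high and Sca-1+, and each mouse gave 1 library. All mice were 20 weeks old. Replicates are numbered 2, 3 and 4 in each group, and a shared litter or day behind a number is not stated. Naive controls, hypertensive mice (HTN) and mice after MI were C57BL/6J. HTN mice received chronic angiotensin II, a vasoconstrictor hormone, from an implanted pump. ApoE mice were atherosclerotic knockouts of the strain Apoe(tm1Unc) on a western diet, so that genotype and diet cannot be told apart in them. MI mice were labelled as sampled 2 days after acute infarction, which the study produces by tying a coronary artery, and its text gives a later day.

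Scavenger receptors are surface proteins that bind modified lipoproteins, fatty acids, dead cells and microbes and carry them into the cell. In capillaries, lipoprotein lipase frees fatty acids from triglyceride-rich particles, CD36 helps endothelial cells to take them up, and fatty acid binding proteins shuttle them through the cytoplasm. Macrophages use the same receptors to clear lipids and debris, and cells that take up more fatty acid than they use store it in droplets coated by perilipin 2.

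The libraries held between 17007088 and 25136936 counts. On these unscaled totals 3 counts, taken as the smallest amount measured, came to between 0.119 and 0.176 CPM, for counting error only. All other CPM values are counts relative to TMM-scaled library totals unless stated. *Apoe*, the targeted gene, lay between 7.28 and 14.8 CPM in the ApoE libraries and between 450 and 1503 CPM in all others. The label of endothelial cells had little backing in the counts, since 19 endothelial genes together held between 152 and 278 CPM, with *Cdh5* between 2.00 and 4.19 and *Kdr* between 6.28 and 13.1. The 13 neutrophil markers summed to 33618 to 96936 CPM, the 14 erythroid markers to 11689 to 47646 and the 13 macrophage markers to 1252 to 2194, and no marker of any list was at 0 in all libraries. The library ApoE replicate 2 correlated least with the others across genes (median r = 0.970), followed by MI replicate 2 (median r = 0.978). Levels of the lipid uptake genes are therefore levels in the sorted mixture, and fewer cells of a type cannot be told apart from less RNA per cell.

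Per length of all annotated exons joined, *Plin2* was the most abundant of the 10 genes and *Cd36* the next in all 12 libraries. For *Fabp4* these exons cover the whole gene span (4489 bp), and for *Fabp5* most of it (3567 bp). A shorter transcript would raise their values per kb, so the places of these 2 genes in the order are uncertain. The median of *Plin2* was 84.5 CPM per kb of exon, which placed it above 96.1% of the genes tested, and that of *Cd36* was 41.5 CPM per kb, above 91.0% of them. *Scarb1* followed at 17.5 CPM per kb and lay above *Olr1*, the next in order, in 11 of 12 libraries. The middle of the order was not separated by its spread. *Olr1* (6.64 CPM per kb) was above *Fabp4* (5.13) in 8 of 12 libraries, *Fabp4* was above *Lpl* (4.14) in 7 of 12, and *Lpl* was above *Msr1* (3.51) in 8 of 12. *Msr1* lay above *Lrp1* (1.87 CPM per kb), and *Lrp1* above *Fabp5* (1.20), in 11 of 12 libraries each. *Marco* was last in every library, at 0.250 CPM per kb (0.0265 to 0.731), with between 1 and 31 counts per library.

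**Figure D1:**
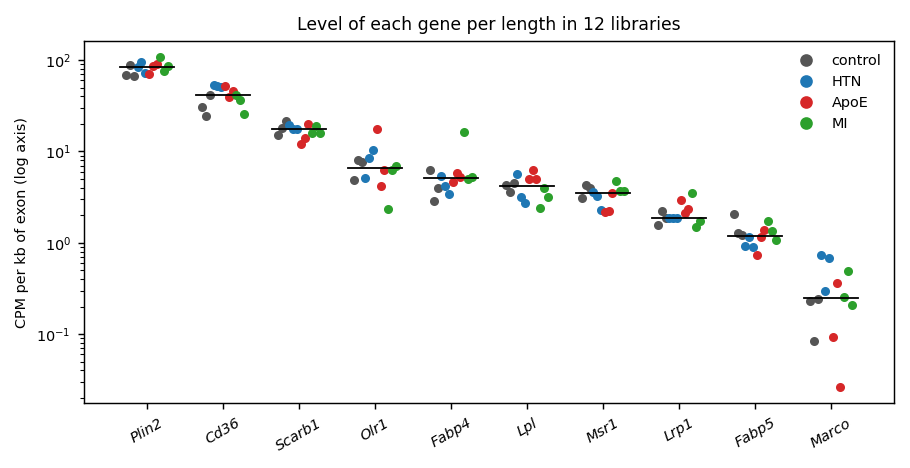
CPM per kb of exon on a log axis for each gene, with 1 point per library coloured by group and a line at the median of the 12 libraries. The length used for *Fabp4* was its whole gene span, and that for *Fabp5* most of it. *Plin2* and *Cd36* stood above the other genes in every library, *Olr1*, *Fabp4*, *Lpl* and *Msr1* overlapped, and *Marco* lay lowest.

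None of the 10 genes changed in HTN, in ApoE or after MI at an adjusted p under 0.05 (edgeR's quasi-likelihood test, Benjamini-Hochberg over all genes tested). In HTN, 2 of the 10 had an unadjusted p under 0.05, *Cd36* and *Marco*, both higher than in controls. Over all genes 594 of 15999 (3.71%) did so, none was called (0%), and the likelihood-ratio test and DESeq2 called none either. In ApoE, *Cd36* was higher and *Msr1* lower at an unadjusted p under 0.05, where 955 genes (5.97%) did so and 0.144% of all genes were called. After MI only *Fabp4* met that level, being higher than in controls, where 448 genes (2.80%) met it and 0% were called. The likelihood-ratio test and DESeq2 called 1 gene each after MI, neither of them among the 10.

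The 10 genes shared no common direction. Against controls, 4 had a higher and 6 a lower fitted level in HTN, with a median log2 fold change of -0.01, beside -0.01 for all genes tested. In ApoE 6 were higher and 4 lower (median 0.20, all genes 0.01), and after MI 6 were higher and 4 lower (median 0.09, all genes 0.00). The 3 comparisons share their controls. In HTN, *Cd36* and *Marco* had all 3 libraries above all 3 controls, as had 9.02% of all genes, and *Fabp5* had all 3 below, as had 7.81%. *Lpl* was the only one of the 10 genes whose ApoE libraries all lay above the controls (5.06% of all genes) and none lay wholly below (4.45%). After MI none of the 10 lay wholly above (4.27% of all genes) or below (4.59%) the controls. One test of any difference among the 4 groups called none of the 10, and 0.144% of all genes. Without the filter on low counts, which left 36003 genes to test, it called *Cd36*, *Olr1* and *Fabp4* (edgeR quasi-likelihood adjusted p = 0.0372, 0.0181 and 4.68e-05). With the filter, the lowest value among the 10 was that of *Cd36* (edgeR quasi-likelihood adjusted p = 0.525).

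**Figure D2:**
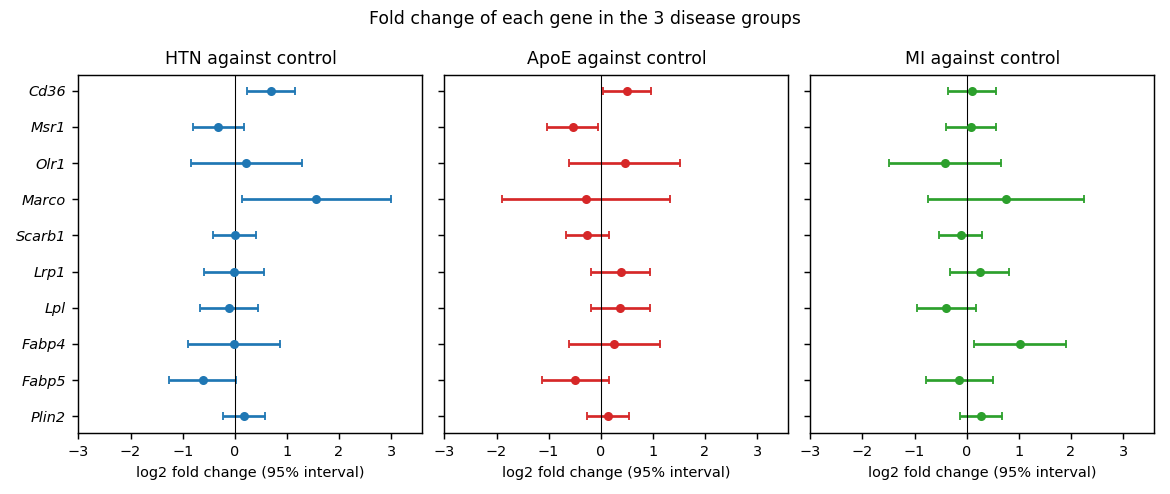
Log2 fold change of each gene against controls in HTN, ApoE and MI, with points for the fitted value of 3 libraries against 3 and bars for its 95% interval before adjustment over genes. The intervals left out 0 for *Cd36* and *Marco* in HTN, *Cd36* and *Msr1* in ApoE and *Fabp4* in MI, and were widest for *Marco* and *Olr1*.

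Among the scavenger receptors, *Cd36* and *Marco* had all HTN libraries above all controls, as had 9.02% of all genes. A small spread in HTN was not particular to *Cd36*, since *Lrp1* lay between 32.9 and 33.2 CPM there, within the range of its controls. CD36 is a class B scavenger receptor and fatty acid transporter of capillary endothelium, macrophages and platelets, and its gene lies on the minus strand at chr5:17781690-17888801 (GRCm38). *Cd36* reached 109, 88.0 and 149 CPM in controls and 191, 187 and 183 CPM in HTN. It reached 186, 143 and 163 CPM in ApoE and 148, 132 and 91.8 CPM after MI. Every HTN library thus lay above every control, and the HTN values spread least, with a mean of 187 ± 4.50 CPM (SD, n = 3) beside 115 ± 31.2 in controls (SD, n = 3). The ApoE libraries overlapped with 1 control, and the MI libraries spanned nearly the range of the controls.

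The log2 fold change of *Cd36* in HTN was 0.70 ± 0.21 (SE, 95% interval 0.24 to 1.16), which ranked 30th of all genes by p (edgeR quasi-likelihood adjusted p = 0.951). In ApoE it was 0.51 ± 0.21 (edgeR adjusted p = 0.801), and after MI 0.10 ± 0.21 (interval -0.35 to 0.56, edgeR adjusted p = 1). Macrophage marker genes held between 1560 and 2095 CPM in HTN and between 1846 and 2194 in ApoE, beside 1273 to 1574 in controls and 1252 to 1679 after MI. The macrophage gene *Adgre1* did not follow this sum, with 41.7 to 61.6 CPM in HTN, 44.8 to 103 in ApoE and 43.7 to 77 in controls. Basophil and mast cell genes held 3369 to 4271 CPM in HTN beside 1818 to 2946 in controls, and neutrophil genes 36818 to 53818 beside 57930 to 80377, both without overlap. With the macrophage marker share as a covariate, the log2 fold change of *Cd36* came to 0.43 in HTN and 0.08 in ApoE. With the endothelial share it was 0.82 in HTN and 0.50 in ApoE, and with the erythroid share 0.70 and 0.51. The part of the cell mixture in the level of *Cd36* was not tested beyond these fits.

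The promoter window of *Cd36* in RefSeq (GRCm38.p6), 250 bases before to 50 after an annotated start, is shown with those of *Olr1* and *Marco*. These were the receptors whose log2 levels spread most within groups (SD 0.763 for *Olr1* and 0.809 for *Marco*, beside 0.281 for *Cd36*). RefSeq windows were found for 5 of the 10 genes, which also include *Plin2* and *Lrp1*. The *Cd36* window, chr5:17835847-17836146 on the minus strand, lies inside the gene span given above and thus belongs to an internal start. The *Olr1* window is chr6:129507116-129507415 and the *Marco* window chr1:120504975-120505274, both on the minus strand. Capitals mark matches, on either strand, to motifs of known factors. AGATAA is the motif of erythroid and endothelial GATA factors. TGANTCA is bound by the AP-1 family of factors. GGGCGG is the GC box bound by the factor SP1. AGGTCA is the half-site of nuclear receptors such as PPARs. GAGGAAG is bound by PU.1, the ETS factor of myeloid cells. TATAAA, the TATA box, was searched as well.
Cd36: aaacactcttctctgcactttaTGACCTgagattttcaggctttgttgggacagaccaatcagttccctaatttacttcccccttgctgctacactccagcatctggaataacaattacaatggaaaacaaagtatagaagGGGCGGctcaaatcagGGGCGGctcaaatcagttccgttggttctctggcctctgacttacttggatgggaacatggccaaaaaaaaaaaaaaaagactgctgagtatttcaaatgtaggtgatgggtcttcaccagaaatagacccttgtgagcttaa
Olr1: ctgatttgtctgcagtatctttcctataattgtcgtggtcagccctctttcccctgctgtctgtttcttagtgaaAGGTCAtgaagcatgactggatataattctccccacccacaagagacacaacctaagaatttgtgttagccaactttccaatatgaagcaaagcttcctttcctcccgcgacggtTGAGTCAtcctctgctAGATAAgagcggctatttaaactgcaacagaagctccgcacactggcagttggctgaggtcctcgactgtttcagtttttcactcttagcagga
Marco: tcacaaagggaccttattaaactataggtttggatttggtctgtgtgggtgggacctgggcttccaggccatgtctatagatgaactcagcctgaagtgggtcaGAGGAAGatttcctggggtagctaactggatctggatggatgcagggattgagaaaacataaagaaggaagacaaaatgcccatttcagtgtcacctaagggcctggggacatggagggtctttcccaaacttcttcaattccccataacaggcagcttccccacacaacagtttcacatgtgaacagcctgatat
The *Cd36* window held GGGCGG at 109 and 93 bases before the start, within a 16-base repeat that occurs back to back, and AGGTCA on the opposite strand. GGGCGG occurs in 35.7% of the 32851 windows of the same length and AGGTCA in 16.3%. The *Olr1* window also held AGGTCA on its own strand. In addition it held TGANTCA, which is found in 7.81% of all windows. Nearest to its start it held AGATAA (11.2%), and the *Marco* window held GAGGAAG (13.6%). TATAAA, in 13.6% of all windows, was found in none of the 5. These matches describe letters only.

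*Msr1* encodes scavenger receptor A, which takes up acetylated and oxidized LDL and is made chiefly by macrophages (chr8:39581685-39642673, minus strand). Its levels were 19.6, 27.2 and 25.3 CPM in controls and 22.6, 20.8 and 14.5 CPM in HTN. In ApoE they were 13.7, 14 and 22.0 CPM, and after MI 29.9, 23.3 and 23.3 CPM. One ApoE library lay within the range of the controls and the others below it. The log2 fold change was -0.54 ± 0.23 in ApoE (SE, edgeR quasi-likelihood adjusted p = 0.814), -0.32 ± 0.23 in HTN and 0.08 ± 0.23 after MI. Basophil and mast cell genes held between 2292 and 7060 CPM in ApoE, beside 1818 to 2946 in controls, and their part in the level of *Msr1* was not tested.

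*Olr1* encodes LOX-1, a lectin-like receptor for oxidized LDL found on endothelial cells (chr6:129485244-129507165, minus strand). It was measured at 17.4, 29.1 and 27.3 CPM in controls, 18.5, 30.5 and 37.1 CPM in HTN, 63.7, 15 and 22.6 CPM in ApoE and 8.28, 22.2 and 24.9 CPM after MI. The groups overlapped throughout, and the highest and the lowest value were those of ApoE replicate 2 and MI replicate 2. Within groups its log2 level had an SD of 0.763, larger than that of 93.9% of genes. The log2 fold change in ApoE was 0.46 ± 0.49 (SE, edgeR quasi-likelihood adjusted p = 0.929), and without ApoE replicate 2 it was -0.38. After MI it was -0.41 ± 0.50 (edgeR adjusted p = 1), and -0.07 without MI replicate 2.

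*Marco*, a receptor of marginal zone and alveolar macrophages that binds bacteria and modified LDL (chr1:120474538-120505024, minus strand), was near the limit of detection. Controls held 8, 3 and 12 counts (0.448, 0.162 and 0.465 CPM) and HTN libraries 31, 13 and 26 counts (1.41, 0.569 and 1.30 CPM). ApoE libraries held 4, 12 and 1 counts and MI libraries 9, 18 and 7. The HTN libraries all lay above the controls, where the smallest exact two-sided permutation p that 3 against 3 libraries allow is 0.1. Its log2 fold change in HTN was 1.56 ± 0.66 (SE, 95% interval 0.14 to 2.99, edgeR quasi-likelihood adjusted p = 0.951). With so few counts the other groups, at -0.29 ± 0.75 in ApoE and 0.76 ± 0.69 after MI, were not resolved from controls at this depth.

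*Scarb1* encodes SR-BI, the receptor through which cells exchange cholesterol with HDL (chr5:125277087-125341094, minus strand). It varied little, from 129 to 183 CPM in controls, 148 to 165 in HTN, 102 to 168 in ApoE and 134 to 160 after MI. Its log2 fold changes were 0.00 ± 0.19 in HTN (95% interval -0.42 to 0.41), -0.26 ± 0.19 in ApoE (-0.67 to 0.16) and -0.12 ± 0.19 after MI (-0.53 to 0.30).

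**Figure D3:**
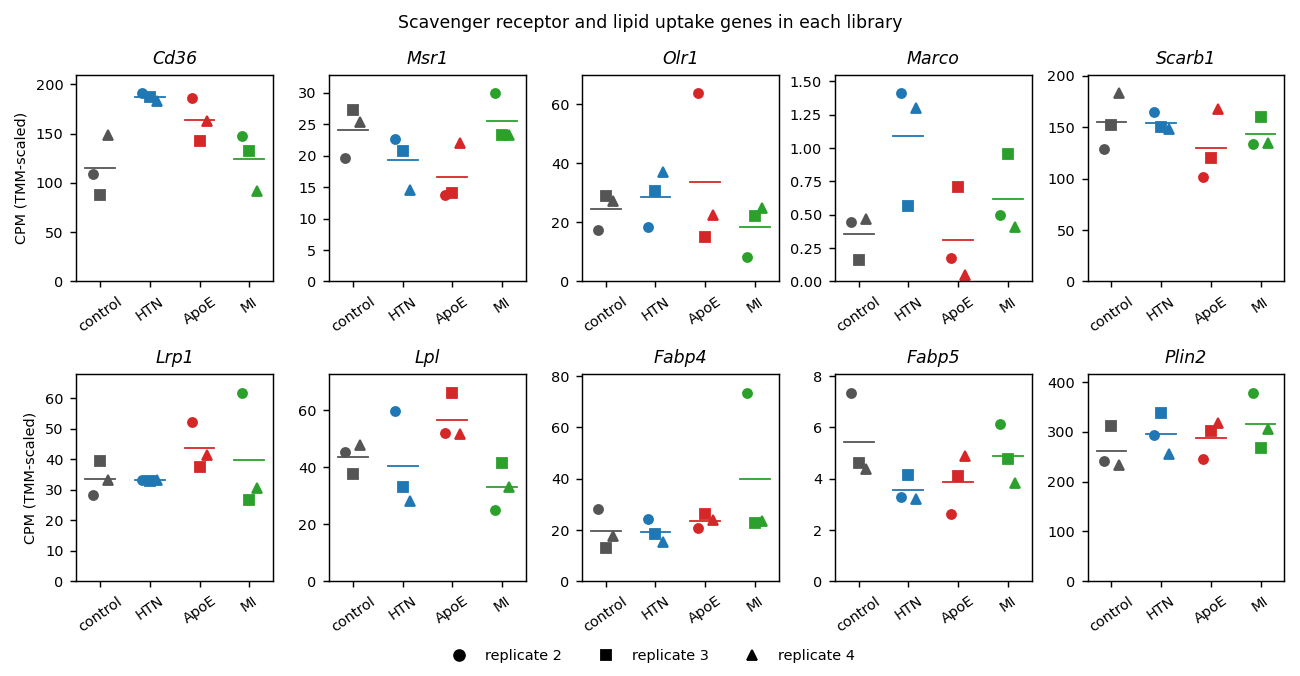
CPM of each gene in the 12 libraries by group, with symbols for the replicate number and a line at the mean of 3 libraries, each panel on its own axis from 0. *Cd36* in HTN lay between 183 and 191 CPM, above the controls, and single libraries stood apart for *Olr1* (ApoE replicate 2, 63.7 CPM) and *Fabp4* (MI replicate 2, 73.4 CPM).

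*Lrp1* encodes a large endocytic receptor that binds ApoE-bearing remnants (chr10:127538161-127621148, minus strand). Its levels were 28.1, 39.3 and 33.0 CPM in controls and 33.2, 32.9 and 33.0 CPM in HTN. In ApoE they were 52.1, 37.3 and 41.4 CPM, and after MI 61.6, 26.7 and 30.7 CPM. The ApoE libraries lay above all HTN libraries and overlapped with 1 control. The log2 fold change in ApoE was 0.38 ± 0.26 (SE, edgeR quasi-likelihood adjusted p = 0.887). After MI it was 0.24 ± 0.26 and became -0.22 without MI replicate 2.

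*Lpl* encodes lipoprotein lipase, the enzyme that works on the capillary surface (chr8:68880491-68907448, plus strand). *Lpl* measured 45.2, 37.6 and 47.8 CPM in controls and 51.9, 66.0 and 51.8 CPM in ApoE, with no overlap. It measured 59.7, 33.0 and 28.3 CPM in HTN and 25, 41.5 and 32.9 CPM after MI, both overlapping with controls. The log2 fold change in ApoE was 0.38 ± 0.26 (SE, 95% interval -0.18 to 0.94, edgeR quasi-likelihood adjusted p = 0.885). Macrophage genes lay above all controls in ApoE, as did those of plasmacytoid dendritic cells (565 to 665 CPM beside 473 to 543). With the macrophage marker share as a covariate the value for *Lpl* was -0.13, with the erythroid share 0.36 and with the endothelial share 0.37. The dendritic cell share was not tested.

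The fatty acid binding proteins differed in where they varied. *Fabp4*, the adipocyte form that also marks capillary endothelium and macrophages (chr3:10204088-10208576, minus strand), reached 28.1, 12.9 and 17.8 CPM in controls, 24.2, 18.6 and 15.2 CPM in HTN and 20.6, 26.2 and 23.8 CPM in ApoE. After MI it reached 73.4, 22.6 and 23.5 CPM. Only MI replicate 2 lay outside the range of the controls. The log2 fold change after MI was 1.02 ± 0.41 (SE, edgeR quasi-likelihood adjusted p = 1), and without MI replicate 2 it was 0.23. When no filter on low counts was applied, which raised the genes tested to 36003, that test called *Fabp4* (log2 fold change 1.00, adjusted p = 0.00141). In MI replicate 2 the adipocyte gene *Adipoq* was at 5.02 CPM, beside 4.39 and 3.19 in the other MI libraries, and the 19 endothelial genes held 199 CPM. The same library held the highest sums of monocyte (2740 CPM) and neutrophil genes (96936 CPM), and their part in the value of *Fabp4* was not tested.

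*Fabp5*, the epidermal form that is also made by endothelial cells and macrophages (chr3:10012548-10016607, plus strand), measured 7.34, 4.60 and 4.38 CPM in controls and 3.27, 4.16 and 3.20 CPM in HTN. It measured 2.62, 4.11 and 4.89 CPM in ApoE and 6.13, 4.76 and 3.82 CPM after MI. The HTN libraries all lay below the controls, with a log2 fold change of -0.61 ± 0.30 (SE, 95% interval -1.26 to 0.03, edgeR quasi-likelihood adjusted p = 0.951). Without control replicate 2 it was -0.34. *Fabp5* has processed copies elsewhere in the genome, and reads that match several places are not counted, so its level is uncertain.

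*Plin2* encodes perilipin 2, the coat protein of lipid droplets (chr4:86648386-86670060, minus strand). It lay between 234 and 312 CPM in controls, 255 and 339 in HTN, 245 and 318 in ApoE and 267 and 378 after MI, and every pair of groups overlapped. Its spread within groups was the smallest of the 10 genes, with an SD of 0.222 on the log2 scale beside a median of 0.315 over all genes. The log2 fold changes were 0.17 ± 0.19 in HTN (95% interval -0.23 to 0.57), 0.13 ± 0.19 in ApoE (-0.27 to 0.53) and 0.27 ± 0.19 after MI (-0.13 to 0.67).

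Direct contrasts between the disease groups called none of the 10 genes either. The share of all genes called was 0.0625% for ApoE against HTN, 0.269% for MI against ApoE and 0% for MI against HTN. For MI against HTN, 1345 genes had an unadjusted p under 0.05, the likelihood-ratio test called 2 genes and DESeq2 18, none of them *Cd36* or *Fabp4*. After MI, *Cd36* lay below HTN in all libraries, with a log2 fold change of -0.59 ± 0.21 (SE, edgeR quasi-likelihood adjusted p = 0.567), and it was the only one of the 10 to do so, beside 10.2% of all genes. *Fabp4* was 1.04 ± 0.41 higher than in HTN (edgeR adjusted p = 0.581) and 0.25 without MI replicate 2. *Msr1* had all MI libraries above all HTN libraries, as had 9.34% of all genes, with a log2 fold change of 0.40 ± 0.23 (edgeR adjusted p = 0.627).

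Between MI and ApoE the lowest adjusted p values of the 10 genes were found. In that contrast 2 of the 10 had an unadjusted p under 0.05, as had 2032 of all genes (12.7%). *Lpl* lay lower after MI in all 3 libraries, as did 7.44% of all genes, with a log2 fold change of -0.77 ± 0.26 (SE, 95% interval -1.34 to -0.21, edgeR quasi-likelihood adjusted p = 0.261). It was called when no filter on low counts was applied (-0.78, adjusted p = 0.0102), and was -0.29 with the macrophage marker share as a covariate. *Msr1* lay higher after MI in all 3 libraries, as did 6.23% of all genes, at 0.62 ± 0.23 (edgeR adjusted p = 0.294), and at 0.37 without both ApoE replicate 2 and MI replicate 2. In ApoE against HTN, *Marco* was at -1.85 ± 0.68 (edgeR adjusted p = 0.695), on counts of 12 or fewer in ApoE. *Lrp1* had all ApoE libraries above those of HTN (5.81% of all genes) at 0.40 ± 0.26 (edgeR adjusted p = 0.879), and none of the 10 lay wholly below (5.08%).

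Since the sorted libraries held RNA of many marrow cells, the log2 level of each gene was set against the log2 summed level of 12 marker lists across the 12 libraries, which gave 120 relations. In 6 of them the adjusted permutation p of Pearson's r was under 0.05, and for Spearman's rho in none, with 0.102 the lowest. *Olr1* was lower where the summed neutrophil markers were higher (r = -0.85, permutation p = 0.00039, adjusted p = 0.027, and rho = -0.80, permutation p = 0.00255, adjusted p = 0.102). Its r was -0.72 without the libraries farthest from the median (HTN replicate 4 and ApoE replicate 2) and -0.90 after group means were subtracted. The neutrophil gene *Mpo* did not follow the neutrophil sum. *Mpo* was at 5146 CPM in ApoE replicate 2, where that sum was lowest (33618 CPM). In MI replicate 2, where the sum was highest (96936 CPM), *Mpo* was at 4420 CPM. *Olr1* was likewise lower where the summed erythroid markers were higher (r = -0.82, permutation p = 0.002, adjusted p = 0.0478, and rho = -0.84, permutation p = 0.00102, adjusted p = 0.102). That r was -0.75 without ApoE replicates 2 and 3 and -0.92 after group means were subtracted. The erythroid transcription factor *Klf1* did not follow the sum. It was at 812 CPM in ApoE replicate 2, where *Olr1* was highest, and lowest in MI replicate 2 (232 CPM), where *Olr1* was lowest too.

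*Msr1* was higher with the sum of monocyte markers (r = 0.78, permutation p = 0.00239, adjusted p = 0.0478, and rho = 0.77, permutation p = 0.00524, adjusted p = 0.126). This r was 0.68 without control replicate 3 and MI replicate 2 and 0.81 after group means were subtracted. It was lower with the sum of basophil and mast cell markers (r = -0.85, permutation p = 0.00045, adjusted p = 0.027, and rho = -0.72, permutation p = 0.0103, adjusted p = 0.154), with r = -0.74 without ApoE replicate 2 and MI replicate 2 and -0.70 after group means. With B cell markers its r was -0.76 (permutation p = 0.002, adjusted p = 0.0478) and rho -0.67 (permutation p = 0.0198, adjusted p = 0.161), and r was -0.57 without the same 2 libraries and -0.78 after group means. With macrophage markers *Msr1* had r = -0.50 (permutation p = 0.101, adjusted p = 0.357) and rho = -0.55 (permutation p = 0.0653, adjusted p = 0.356). That r was -0.44 without HTN replicate 2 and ApoE replicate 2 and 0.13 after group means. *Fabp5* was higher with neutrophil markers (r = 0.79, permutation p = 0.00231, adjusted p = 0.0478, and rho = 0.67, permutation p = 0.0211, adjusted p = 0.161), with r = 0.59 without HTN replicate 4 and ApoE replicate 2 and 0.71 after group means. As given above, *Mpo* did not follow the neutrophil sum.

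For *Cd36* the closest list was that of macrophages (r = 0.78, permutation p = 0.00292, adjusted p = 0.0501, and rho = 0.70, permutation p = 0.0141, adjusted p = 0.161). The r was 0.72 without HTN replicate 2 and ApoE replicate 2 and 0.66 after group means were subtracted. With endothelial genes, *Cd36* had r = 0.19 (permutation p = 0.565, adjusted p = 0.841) and rho = 0.15 (permutation p = 0.635, adjusted p = 0.877), with r = 0.11 without control replicate 4 and ApoE replicate 4 and 0.62 after group means were subtracted.

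**Figure D4:**
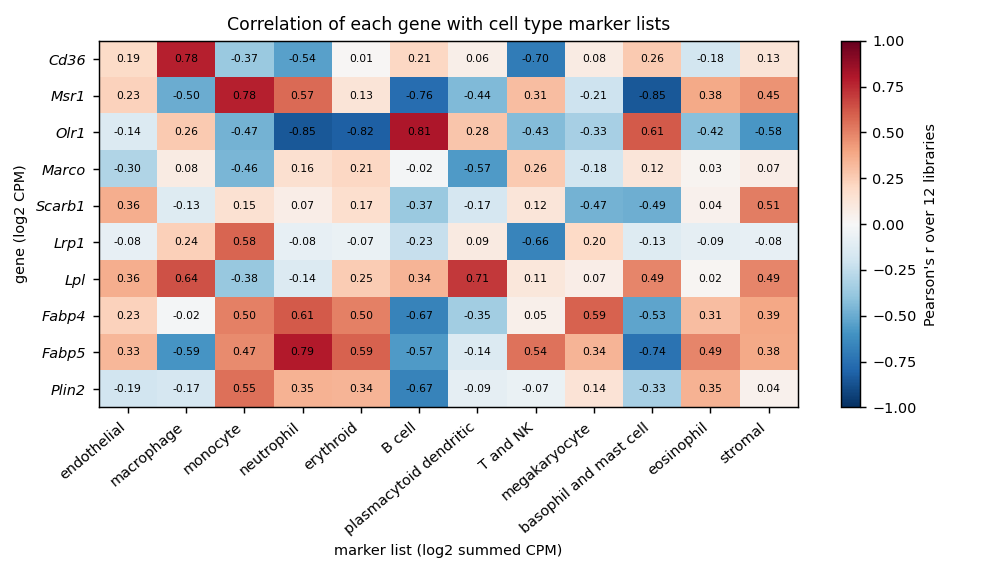
Pearson's r over 12 libraries between the log2 level of each gene (rows) and the log2 summed level of each marker list (columns), from -1 in blue to 1 in red, with the value in each cell. The strongest entries were those of *Msr1* with basophil and mast cell genes and of *Olr1* with neutrophil genes, both at -0.85.

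**Figure D5:**
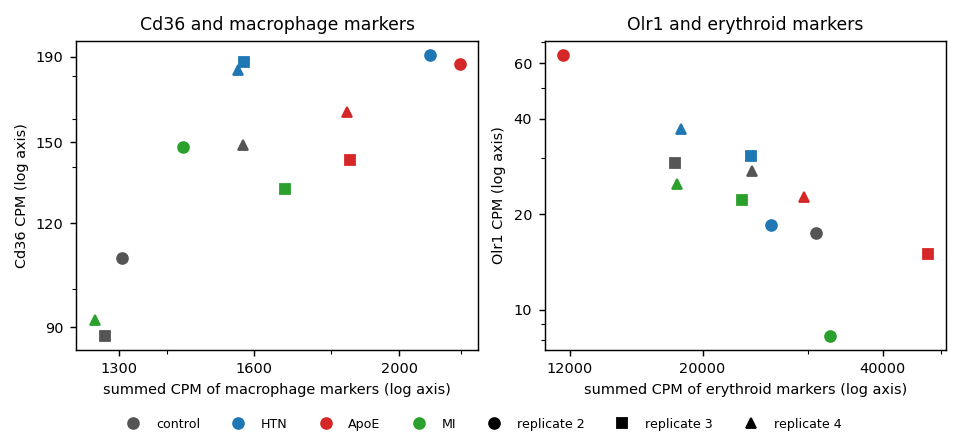
*Cd36* against summed macrophage markers (left) and *Olr1* against summed erythroid markers (right) in CPM on log axes, 1 point per library, coloured by group and shaped by replicate number. *Cd36* was higher in libraries with a higher macrophage marker sum, and *Olr1* ranged from 63.7 CPM in ApoE replicate 2, which had the lowest erythroid marker sum, to 8.28 CPM in MI replicate 2.

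The other genes of the pathway were followed as 6 lists of 86 genes, of which 69 were tested, and none was called in any of the 7 tests. These lists cover other scavenger receptors, other lipoprotein receptors with their adaptors, capillary lipolysis, fatty acid transport and activation, lipid droplets, and transcription factors of lipid uptake. At an unadjusted p under 0.05 there was 1 of the 69 genes in HTN, 9 in ApoE and 4 after MI, where 3.71%, 5.97% and 2.80% of all genes were at that level. In HTN 34 of the 69 were higher than controls and 35 lower (median log2 fold change 0.00), in ApoE 40 and 28 (0.05), and after MI 32 and 37 (-0.03).

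In ApoE the largest positive differences of the pathway were those of *Ppargc1a*, a coactivator of PPARs, at 1.56 ± 0.74 (SE, edgeR quasi-likelihood adjusted p = 0.839), and of *Vldlr*, the VLDL receptor, at 1.34 ± 0.48 (adjusted p = 0.687), on levels below 2 CPM. *Scarf2* was at -0.54 ± 0.65, on 0.089 to 0.764 CPM in ApoE and 0.392 to 1.12 CPM in controls. The lowest of these values was below the level of 3 counts. After MI *Vldlr* was at 1.11 ± 0.48 and *Nr1h3*, which encodes LXR alpha, was at -0.66 ± 0.28. *Clec7a*, which encodes the beta-glucan receptor dectin-1, measured 127, 171 and 168 CPM in controls and 93.7, 109 and 97.4 CPM after MI, at -0.63 ± 0.19 (edgeR adjusted p = 1). In HTN the largest differences were those of *Colec12* (0.63 ± 0.45) and *Acsl6* (0.45 ± 0.26) above and *Lipg*, endothelial lipase (-0.58 ± 0.46), and *Scarf1* (-0.57 ± 0.27) below. *Colec12* and *Lipg* lay at 3.54 CPM or below in all HTN and control libraries.

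Across the 12 libraries, the genes whose log2 level was most like that of *Cd36* were *Slc38a5* (r = 0.944), *2610301B20Rik* (0.938) and *Gm19434* (0.910). For the other receptors they were *Sytl1*, *Ugt1a7c* and *Bicdl1* with *Msr1* (0.928 to 0.942), *Chfr*, *Lins1* and *Usp11* with *Olr1* (0.956 to 0.958), *Dnttip1*, *Mrpl46* and *Stoml2* with *Marco* (0.936 to 0.968) and *Strn4*, *Tfeb* and *Dchs1* with *Scarb1* (0.932 to 0.967). *Lrp1* was closest to *Grsf1*, *Fgfr1* and *Tnks* (0.878 to 0.901), and *Lpl* to *Trbc2*, *Ccdc162* and *Pmepa1* (0.888 to 0.934). *Fabp4* was closest to *Cryl1*, *Ubxn8* and *Rps25* (0.935 to 0.962), *Fabp5* to *Zfp975*, *Retnlg* and *Tsc22d3* (0.898 to 0.941), and *Plin2* to *Zfp609*, *Dock4* and *4833418N02Rik* (0.811 to 0.841). These are the highest of 15999 values each, and a description without a test. *Retnlg* is one of the neutrophil markers used above.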

How the data were processed

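RNA of sorted marrow endothelial cells was measured in 12 mice. The authors aligned single-end reads of strand-specific poly(A) libraries to GRCm38 (p6) with STAR 2.7.3a and deposited raw counts per Ensembl gene from its GeneCounts option. Which strand column was taken is not given in the sources used here. Counts were analysed in R 4.3.3 with edgeR 4.0.16. Genes were filtered with filterByExpr, libraries scaled by TMM (factors 0.934 to 1.06), and all 12 libraries fitted with 1 coefficient per group, which left 8 residual degrees of freedom (common dispersion 0.0634). Contrasts were tested two-sided by glmQLFTest with Benjamini-Hochberg adjustment over 15999 genes at 0.05. The study's likelihood-ratio test and DESeq2 1.42.0 were alternatives. Correlation p values came from 100000 permutations. Gene models were GENCODE M21, promoters RefSeq GRCm38.p6, and 55154 gene IDs matched a symbol. Each library came from 1 mouse according to the study's text.

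The members and lists were chosen with earlier results of these data known. Named genes are the 10 members, *Apoe*, defining markers, and of the pathway lists any called gene and the 2 largest differences in each direction against controls, plus the 3 genes most correlated with each member. Some genes that this rule names are not reported here. On data simulated for ApoE against control (15731 genes tested), the test called 45 of 100 genes changed by log2 1, 83 of 100 changed by log2 2 and 5 unchanged genes.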

Additional observations from a re-analysis of the deposited data

How the results depend on the processing

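Across settings, 35 values of the 10 genes were followed. These were all values against controls and, of the direct contrasts between disease groups, only those with an unadjusted p under 0.05 in the main fit. The other direct contrasts were not followed, so calls among them are not known. None of the 35 was called under the likelihood-ratio test, DESeq2, RLE factors, scaling without immunoglobulin and hemoglobin genes, the marker covariates, the replicate block or any library left out. With no filter on low counts 3 were called (*Fabp4* after MI against control and HTN, the latter at 1.00 with edgeR adjusted p = 0.000676, and *Lpl* for MI against ApoE). In the test of any difference among groups, *Cd36*, *Olr1* and *Fabp4* were called without that filter (edgeR adjusted p = 0.0372, 0.0181 and 4.68e-05). Why the filter changed these calls was not tested. A filter of at least 10 counts in every library left out *Marco*, whose values could not be fitted then. At these depths fold changes of *Marco* rest on 1 to 31 counts.

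Counts of called genes over the whole table moved more. They were 0 for HTN, 23 for ApoE and 0 for MI against control, 10 for ApoE against HTN, 43 for MI against ApoE, 0 for MI against HTN and 23 for any difference. In that order without HTN against control, the likelihood-ratio test called 81, 1, 70, 274, 2 and 234 and DESeq2 79, 1, 71, 291, 18 and 227. Without the filter, with HTN first, 170, 432, 130, 235, 790, 422 and 990 were called. With the macrophage share as a covariate 2 were called for ApoE, 6 for ApoE against HTN, 1 for MI against ApoE and 3 for any difference, and with the erythroid share 45, 30, 585 and 133. With the endothelial share 15 were called for ApoE, 18 for MI against ApoE and 13 for any difference. A fit of only the groups compared called 4 for ApoE, 1 for MI and 3 for MI against ApoE. When each library was left out in turn, counts ranged from 2 to 34 for ApoE, 3 to 36 for ApoE against HTN, 8 to 93 for MI against ApoE and 7 to 37 for any difference. An alternative chosen after seeing the data, without ApoE replicate 2 and MI replicate 2 together, called 55 for ApoE, 124 for ApoE against HTN and 46 for any difference.

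The replicate numbers were tested as a pairing. Deviations from group means correlated between -0.282 and 0.296 for the 18 library pairs that share a number (median -0.0245, 5 over 0.1). For the 36 pairs that do not, the deviations correlated between -0.299 and 0.390 (median 0.011, 12 over 0.1). By their median, pairs that share a number were thus not more alike than the others. With so few libraries per group, these correlations cannot show whether a number stands for a shared litter or day. With the replicate block 7 genes were called for ApoE, 22 for MI against ApoE and 5 for any difference, and none of the values followed for the 10 genes was called.

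Some directions turned with the setting. With single libraries left out, values in HTN ranged from -0.119 to 0.14 for *Scarb1*, -0.248 to 0.327 for *Fabp4*, -0.004 to 0.459 for *Olr1*, -0.129 to 0.109 for *Lrp1* and -0.506 to 0.094 for *Lpl*. In ApoE they ranged from -0.375 to 0.809 for *Olr1* and -1.583 to 0.214 for *Marco*. After MI they ranged from -0.062 to 0.339 for *Cd36*, -0.047 to 0.179 for *Msr1*, -0.232 to 0.026 for *Scarb1*, -0.221 to 0.462 for *Lrp1* and -0.338 to 0.126 for *Fabp5*. Without both ApoE replicate 2 and MI replicate 2, *Olr1* was -0.387 in ApoE, and after MI *Cd36* was -0.045, *Msr1* -0.047 and *Lrp1* -0.221. In HTN, *Scarb1* turned to 0.007 without the filter, 0.001 with at least 10 counts and with the erythroid share, 0.017 with the block and 0.096 with the endothelial share. There *Fabp4* turned to 0.018 with the block, 0.093 with the macrophage share and 0.045 with the erythroid share, and *Olr1* to -0.058 with the macrophage share. In ApoE the macrophage share turned *Olr1* to -0.135 and *Lpl* to -0.132. The cause was not tested. On library totals in place of TMM, the mean of *Lrp1* in HTN was 33.5 CPM. After group means were subtracted, 2 of the 3 most similar genes were kept for *Cd36* and *Marco*, 1 for *Lpl*, *Fabp4* and *Fabp5*, and 0 for the other members.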
